A study of Mus musculus with 11 samples.

Results

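Weak promoter peaks are stretches of open chromatin within 1 kb of an annotated transcription start site that collected few reads. They were chosen by the authors' promoter annotation and by a mean normalised count under 50 over all libraries, a level used here to choose the peaks and not a finding. The rule took 4648 of 94410 peaks, which is 25.7% of the 18102 promoter peaks, and these peaks belong to 3955 genes. The assay was ATAC-seq, whose transposase cuts open DNA and adds sequencing adapters to it, and the cells were haematopoietic stem cells (HSCs) sorted out of mouse bone marrow. The groups were 3 libraries of old AThi (GFPlo) HSCs, 3 of old ATlo (GFPhi) HSCs and 5 of young HSCs, which were unfractionated. All 11 libraries came from Gfplc3/Gfplc3 cells isolated at steady state. This reporter fuses GFP to LC3, a protein of the autophagosome membrane that is degraded as autophagy proceeds, so that low GFP was read by the submitters as high autophagy. The labels give no age in numbers, no sex and no number of animals per library, and isolation and transposition took 2 days that are not assigned to samples. In both comparisons with young HSCs, age, sorting by GFP, day and sex therefore cannot be told apart.

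A promoter is the DNA around a gene's start where RNA polymerase and its general factors assemble. Genes used in every cell mostly start in CpG islands, stretches rich in the dinucleotide CG that are kept free of nucleosomes and open in nearly all tissues. Promoters of genes used in few cell types often lack an island, or carry one that Polycomb proteins keep closed, as at many developmental transcription factor genes. In stem cells of the blood such promoters give little ATAC signal. An open promoter is not a measurement of the gene's RNA.

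The sequences in front of 6 genes are examples of base composition at weak promoters that gained or lost accessibility in old HSCs. Gabra2, Fibin and Neurog3 had peaks over their start sites that were higher in both old fractions than in young HSCs. Lilra6, Tlr9 and Clec4a2 had peaks over their start sites that were lower in old AThi HSCs than in the young. The 6 were picked after their values were seen, as examples. Each line gives the 200 bases before the RefSeq start in GRCm38.p6, 5′ to 3′ on the gene's strand, with CG dinucleotides in capitals.
Gabra2 (chr5:71095850-71096049, minus strand): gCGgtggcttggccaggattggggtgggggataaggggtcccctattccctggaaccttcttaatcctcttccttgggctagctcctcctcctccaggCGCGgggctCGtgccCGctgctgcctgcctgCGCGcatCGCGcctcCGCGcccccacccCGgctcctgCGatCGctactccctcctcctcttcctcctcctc
Fibin (chr2:110362994-110363193, minus strand): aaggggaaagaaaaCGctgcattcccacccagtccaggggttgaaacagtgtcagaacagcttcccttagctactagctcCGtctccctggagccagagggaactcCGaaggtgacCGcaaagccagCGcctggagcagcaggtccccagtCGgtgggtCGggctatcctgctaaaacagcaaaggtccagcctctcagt
Neurog3 (chr10:62132890-62133089, plus strand): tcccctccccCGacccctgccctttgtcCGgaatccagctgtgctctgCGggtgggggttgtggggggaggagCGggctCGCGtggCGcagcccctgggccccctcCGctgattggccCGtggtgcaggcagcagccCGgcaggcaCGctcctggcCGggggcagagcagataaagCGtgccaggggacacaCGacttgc
Lilra6 (chr7:3915502-3915701, minus strand): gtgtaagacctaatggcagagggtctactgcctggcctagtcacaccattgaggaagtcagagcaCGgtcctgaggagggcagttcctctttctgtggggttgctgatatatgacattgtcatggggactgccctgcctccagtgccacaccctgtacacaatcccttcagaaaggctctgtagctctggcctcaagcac
Tlr9 (chr9:106222398-106222597, plus strand): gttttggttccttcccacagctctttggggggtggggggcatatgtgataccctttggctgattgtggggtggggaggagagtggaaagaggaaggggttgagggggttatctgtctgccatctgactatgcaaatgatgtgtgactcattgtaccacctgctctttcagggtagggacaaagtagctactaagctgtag
Clec4a2 (chr6:123122490-123122689, plus strand): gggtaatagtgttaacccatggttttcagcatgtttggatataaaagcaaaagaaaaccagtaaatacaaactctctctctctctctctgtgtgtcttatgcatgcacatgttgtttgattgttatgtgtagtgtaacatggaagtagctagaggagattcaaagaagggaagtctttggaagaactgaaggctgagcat
The 3 promoters with a higher peak hold 14 CG dinucleotides at Gabra2, 7 at Fibin and 14 at Neurog3. The 3 with a lower peak hold 1 at Lilra6, 0 at Tlr9 and 0 at Clec4a2.

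Over all such promoters the difference in the median CG content was small beside the spread. The ratio of observed to expected CG in RefSeq windows of 300 bases, from 250 before to 50 after the start, was computed for the 2191 of 3955 genes with a single window. Its median was 0.49 (n = 150 genes) where a weak peak was called higher in old AThi HSCs and 0.33 (n = 42) where one was called lower, against 0.52 (n = 1955) where no weak peak was called in either comparison with young HSCs. In old ATlo HSCs the medians were 0.50 (n = 144) for higher and 0.37 (n = 25) for lower peaks. For peaks over the start site, as in the 6 examples, the AThi medians were 0.48 (n = 82) for higher and 0.21 (n = 21) for lower peaks. The ATlo medians of such peaks were 0.51 (n = 84) and 0.47 (n = 8), so the examples' difference was nearly absent there. The interquartile range of genes with a higher AThi peak was 0.25 to 0.75 and that of genes with a lower AThi peak 0.15 to 0.72, so both ranges overlap widely. Genes whose promoter peaks were all weak had a median of 0.41 (n = 1539), against 0.77 (n = 7158) for genes with stronger promoter peaks alone. All genes of the RefSeq table with a single window had 0.37 (n = 22862). Genes with both a weak and a stronger promoter peak had 0.74 (n = 652). Weak peaks as a gene's only promoter peaks thus went with a CG content close to that of all genes with a single window. A weak peak beside a stronger one went with the content of island promoters. These are descriptions of the genes' windows, with no test.

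**Figure D1:**
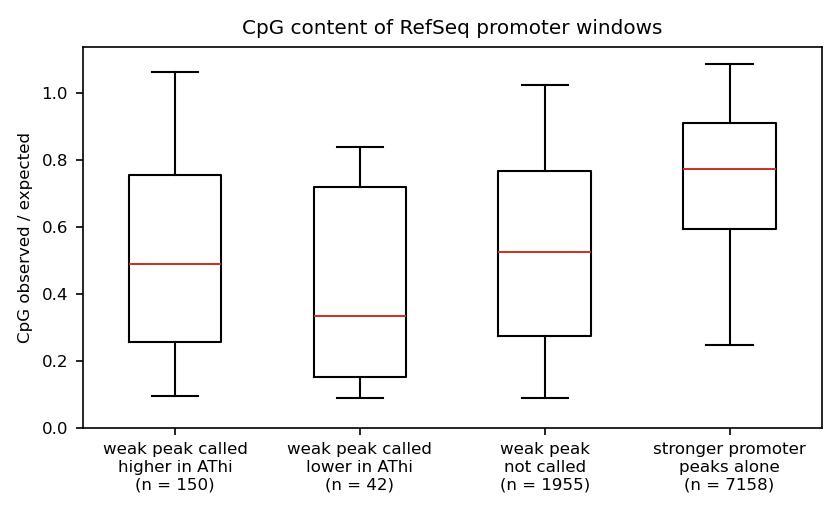
CG observed over expected (vertical axis, a ratio) in RefSeq promoter windows of genes with a weak promoter peak called higher in old AThi HSCs, called lower in them, or not called, and of genes with stronger promoter peaks alone. Boxes give the quartiles and the red line the median, and whiskers run from the 5th to the 95th percentile. The medians are 0.49, 0.33, 0.52 and 0.77, and the first 3 boxes overlap.

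Short motifs were counted on both strands of the same windows, without regard to overlap between motifs. All windows here means those of genes with a single window. GGGCGG, the core bound by Sp1, was in 37.4% of windows of genes with weak promoter peaks alone, against 67.5% with stronger peaks alone and 35.2% of all windows. CCGGAAG, bound by many ETS factors, was in 5.13% with weak peaks alone, against 17.4% with stronger peaks alone and 9.12% of all. TATAAA was in 11.7% with weak peaks alone, against 6.94% with stronger peaks alone and 14.8% of all. GAGGAAG, close to the site of the myeloid factor PU.1 and added after the values were seen, was in 12 of 42 windows (28.6%) with a lower AThi peak, against 16.7% with a higher AThi peak and 13.5% of all windows. In the windows with a lower ATlo peak it was in 3 of 25 (12%). A match shows the letters alone.

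Most weak promoter peaks did not cover an annotated start. In the authors' deposited tables the mean level ran from 1.94 to 50.0 normalised counts per peak, not divided by width, with a median of 24.1. Peak width was 208 to 1698 bases with a median of 484, against a median of 1207 bases for the 13454 stronger promoter peaks. A start site lay under 2122 of the peaks (45.7%), against 91.1% of stronger promoter peaks. For 3070 peaks the gene had no promoter peak of 50 or more, and the other 1578 stood beside a stronger one of the same gene. The genes were mostly protein-coding (3939 peaks), followed by long non-coding RNAs (538 peaks), microRNAs (99 peaks) and transcribed pseudogenes (48 peaks). A single weak peak was found at 3357 genes and several at 598, with 5 at Bdnf, which has many alternative starts. The peaks nearest below the threshold, at Ogfod2 (49.97), Efna3 (49.98) and Zfp804b (50.00), were not called in either comparison with young HSCs. Of those nearest above it, Inpp5b and Nfatc1 were not called, and Adcy5 was called higher with log2 changes of 0.96 in old AThi and 0.73 in old ATlo HSCs against young HSCs.

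Promoter levels of marker genes were read as a check of the label. The highest promoter peak had a mean level of 414 normalised counts at Mecom, 342 at Kit, 207 at Gata2, 139 at Hlf, 98.1 at Cd34 and 77.1 at Procr, all HSC or progenitor genes. Slamf1, which encodes the HSC surface marker CD150, had a weak promoter peak at 28.6. Cd3e of T cells, Elane of granulocytes and Cdh5 of endothelium had no promoter peak in the tables. Depth per library and values per library were not in the tables used here, so each group is described by the authors' fitted change and its standard error (SE).

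In old AThi HSCs, weak promoter peaks such as those of Krt19, a keratin of simple epithelia, Gabra2, a GABA-A receptor subunit, and Cdkn2a, which encodes cell cycle inhibitors, were higher than in young HSCs, and peaks such as those of Xdh, an enzyme of purine breakdown, and Clec4a3, a myeloid lectin receptor, were lower. A peak was called at an adjusted p under 0.05 in the authors' deposited table (DESeq2's Wald test with Benjamini-Hochberg adjustment). In both comparisons with young HSCs 92579 of the 94410 peaks, 4573 weak promoter peaks among them, had an adjusted p. Of these, 268 (5.86%) were higher and 76 (1.66%) lower in old AThi HSCs relative to young HSCs, at 261 and 75 genes. Over all peaks with an adjusted p, 7.57% were called higher and 2.74% lower. The weak promoter peaks thus had a smaller share of calls in each direction than all peaks. The median log2 change was -0.01 over all weak promoter peaks, 1.43 over the higher calls and -1.35 over the lower calls, and 231 higher and 61 lower calls were at least 2-fold. Over all 94410 peaks the median was -0.04.

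Old ATlo HSCs were compared with the same 5 young libraries. Weak promoter peaks were higher in 265 cases (5.79%) and lower in 44 (0.962%), against 6.88% higher and 2.54% lower over all peaks. The median log2 change was 0.02 over all weak promoter peaks, 1.37 over the higher calls and -1.22 over the lower calls, and 209 higher and 34 lower calls were at least 2-fold. Higher calls made up 77.9% of the calls in old AThi and 85.8% in old ATlo HSCs. Because both comparisons share the young libraries, their lists are not independent, and values for both are given side by side.

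**Figure D2:**
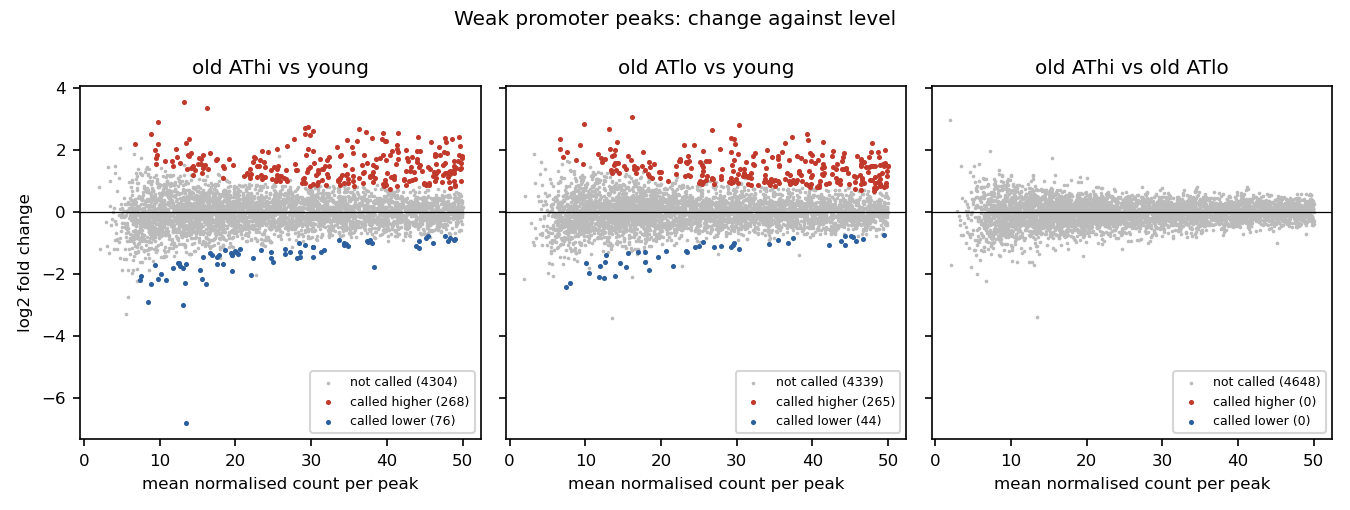
Log2 fold change (vertical axis) against the mean normalised count per peak (horizontal axis) for the 4648 weak promoter peaks in the 3 comparisons of the authors' deposited tables. Red points were called higher (268 in old AThi, 265 in old ATlo), blue points lower (76 and 44), grey points were not called. Old AThi against old ATlo has no coloured point, and the lowest point at left is the Xist peak at -6.79.

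The share of weak peaks called higher grew with level, along with precision. Between levels of 0 and 10, 1.80% were higher in old AThi HSCs than in the young, followed by 2.57% at 10 to 20, 5.47% at 20 to 30, 8.11% at 30 to 40 and 11.5% at 40 to 50. The median SE of the log2 change fell over the same steps, 0.61 at the lowest and 0.27 at the highest level. In old ATlo HSCs the shares were 1.80%, 2.79%, 5.08%, 8.22% and 11.1%. Peaks outside promoters at the same levels had larger shares at each step, 2.64%, 5.00%, 6.95%, 10.2% and 12% in old AThi HSCs and 2.88%, 4.92%, 6.98%, 9.63% and 11.6% in old ATlo HSCs. The lower calls showed no such slope, at 1.34% to 1.91% of weak peaks per step in old AThi HSCs and 0.450% to 1.18% in old ATlo HSCs. How far precision sets these shares was not tested.

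**Figure D3:**
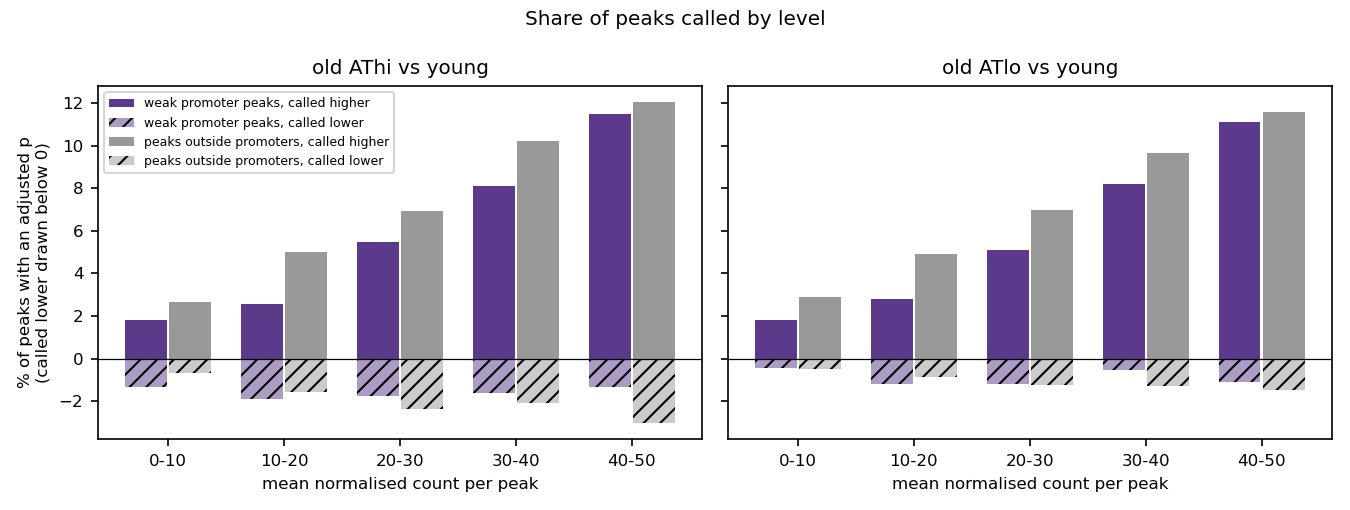
Percentage of peaks with an adjusted p that were called (vertical axis, lower calls drawn below 0) by mean normalised count per peak (horizontal axis), for weak promoter peaks (purple) and peaks outside promoters (grey). In old AThi HSCs the purple bars for higher calls run from 1.80% to 11.5% and the grey ones from 2.64% to 12%.

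Stronger promoter peaks had another balance of directions. Of 13454 promoter peaks with a level of 50 or more, 7.87% were higher and 5.63% lower in old AThi HSCs, and 5.77% were higher and 8.92% lower in old ATlo HSCs, each against young HSCs. Their median log2 changes were -0.13 in old AThi and -0.19 in old ATlo HSCs. Peaks outside promoters at levels under 50 had 6.31% higher and 1.77% lower in old AThi HSCs, and 6.21% higher and 0.983% lower in old ATlo HSCs, close to the weak promoter peaks. The authors' scaling bears on this balance. Over all promoter peaks the median log2 change was -0.11 in old AThi and -0.15 in old ATlo HSCs, and relative to that median 339 weak promoter peaks were higher and 52 lower in old AThi HSCs, and 380 higher and 22 lower in old ATlo HSCs.

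Weak peaks were split by whether the gene had a stronger promoter peak, and those without one had the larger share of higher calls. In old AThi HSCs 224 of 3020 sole peaks (7.42%) lay above young HSCs, and 44 of 1553 beside a stronger peak (2.83%). In old ATlo HSCs the counts were 219 (7.25%) and 46 (2.96%). The difference between both kinds was not tested. By position, 138 peaks over the start (6.54%), 92 downstream of it (6.19%) and 38 upstream of it (3.89%) were higher in old AThi HSCs. For the 44 higher AThi peaks beside a stronger one, the stronger peak was also higher in 19 cases, lower in 0 and not called in 25. Their median log2 change was 1.39, against 0.31 for the stronger peaks beside them. Rims2, which encodes a scaffold of synaptic vesicle release, had such a peak upstream of its start, with a level of 45.9, beside a stronger one at 84.6.

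The derived level in each group shows where the called peaks lay. Group levels are not in the tables and were derived from the mean level and both log2 changes, assuming that the mean was over all 11 libraries and that the fit held group terms alone. On that reading the higher AThi peaks had a median of 51.1 normalised counts in old AThi HSCs and 17.7 in young HSCs, and 136 of the 268 were at 50 or more in old AThi HSCs. The lower AThi peaks had 12.3 in old AThi HSCs and 31.6 in young HSCs, and 11 of the 76 were at 50 or more in young HSCs. The higher ATlo peaks had 46.6 in old ATlo HSCs and 17.7 in young HSCs, and 116 of the 265 were at 50 or more in old ATlo HSCs. The lower ATlo peaks had 14.8 in old ATlo HSCs and 33.5 in young HSCs, and 9 of the 44 were at 50 or more in young HSCs. The choice of peaks with a mean under 50 limits these levels and they carry no test.

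The higher peaks with the smallest p are given by gene. In the authors' deposited tables the peak 288 bases after the start of Krt19 (chr11:100035745-100036464, taken as mm39), was higher by a log2 value of 2.35 (SE 0.27) at an adjusted p of 1.46e-15 in old AThi HSCs and by 1.94 (SE 0.27, adjusted p = 3.40e-10) in old ATlo HSCs, with derived levels of 86.0 normalised counts in old AThi, 64.3 in old ATlo and 16.8 in young HSCs. Gabra2 (chr5:71252966-71253934), whose promoter is printed here, gave 2.35 (SE 0.29, adjusted p = 4.99e-13) in old AThi and 2.51 (SE 0.29, adjusted p = 2.62e-15) in old ATlo HSCs. Its derived levels were 59.1 in old AThi, 65.9 in old ATlo and 11.6 in young HSCs, a 5.11-fold (95% interval 3.43 to 7.63) and a 5.70-fold (3.87 to 8.41) difference. Both old fractions thus lay far above young HSCs at Krt19 and Gabra2, by several SEs. Fibin, a secreted protein described in fin bud development of zebrafish, had 2.25 (SE 0.28) in old AThi and 2.21 (SE 0.28) in old ATlo HSCs.

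Further genes among the 10 smallest p in either comparison were higher in both. Grm5, a metabotropic glutamate receptor, had log2 changes of 2.42 in old AThi and 2.00 in old ATlo HSCs. Shisa6 and Shisa7 encode auxiliary proteins of neurotransmitter receptors and had 2.57 and 2.30 in old AThi HSCs, and 2.42 and 1.65 in old ATlo HSCs. Epha8, an ephrin receptor of the nervous system, had 2.13 in old AThi and 1.57 in old ATlo HSCs. All these receptor and synapse genes were called in both old fractions. Hsf5, a member of the heat shock factor family used in male germ cells, had 2.68 in old AThi and 2.24 in old ATlo HSCs. Lincmd1, a long non-coding RNA of muscle differentiation, had 2.43 in old AThi and 1.91 in old ATlo HSCs. Dio3, which inactivates thyroid hormone, had 2.04 in old AThi and 1.84 in old ATlo HSCs, and Crym, which binds thyroid hormone, had 2.55 in old AThi and 2.32 in old ATlo HSCs. Adamts19, a secreted metalloprotease, had 2.55 in old AThi and 2.26 in old ATlo HSCs, and Gpr139, a receptor of the brain, had 2.14 in old AThi and 2.63 in old ATlo HSCs. Rims2 had 2.27 in old AThi and 1.81 in old ATlo HSCs. The adjusted p of these peaks ran from 1.73e-15 at Adamts19 to 3.77e-06 at Gpr139 in old AThi HSCs.

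**Figure D4:**
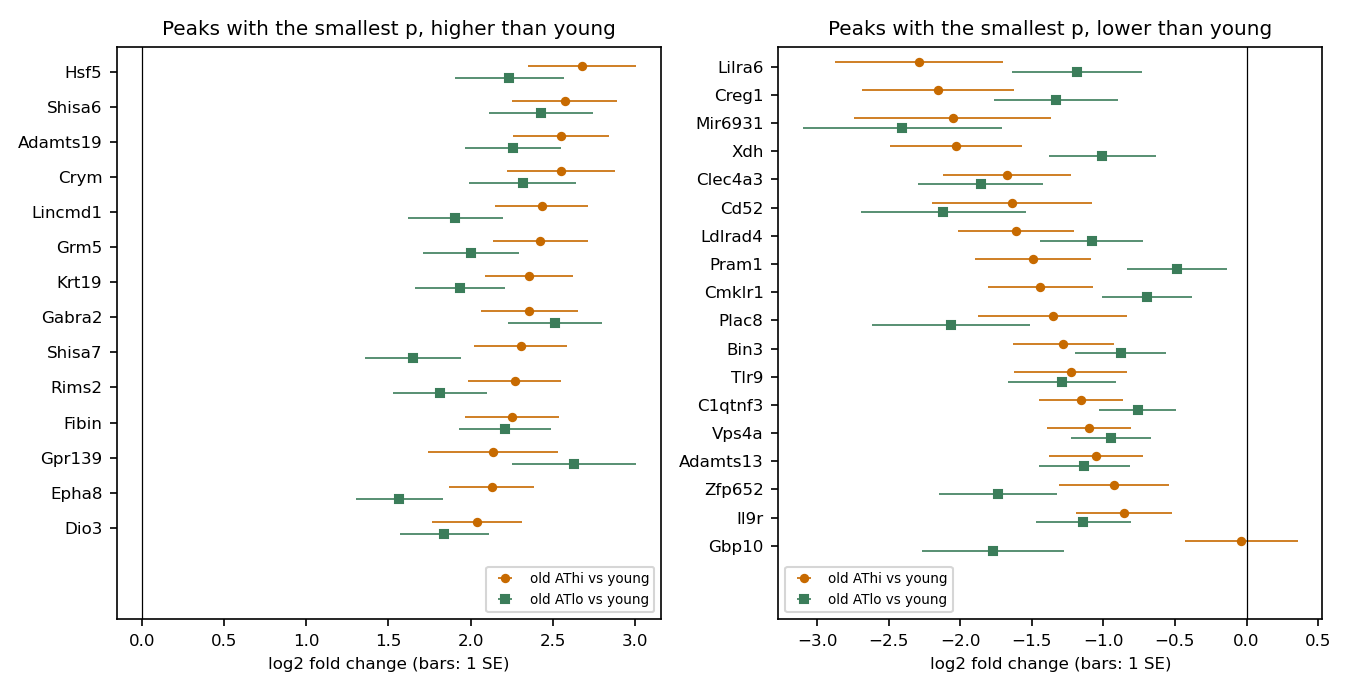
Log2 fold change against young HSCs (horizontal axis, bars 1 SE) for the weak promoter peaks with the 10 smallest p in either comparison, higher at left and lower at right, in old AThi (orange circles) and old ATlo (green squares) HSCs. All higher peaks lie above 1.5 in both fractions. Among the lower peaks, Gbp10 lies at -0.04 in old AThi and -1.77 in old ATlo HSCs.

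Of the lower peaks, 18 of 76 in old AThi HSCs and 11 of 44 in old ATlo HSCs were at genes of an innate immune list. That list was drawn up after the values were seen, so the counts are a description. It holds 92 of all 4648 weak promoter peaks. Relative to the median of all promoter peaks, 13 of 52 lower peaks in old AThi HSCs and 7 of 22 in old ATlo HSCs were in it. Xdh (chr17:74256569-74256983), xanthine dehydrogenase, was lower, with a log2 value of -2.03 (SE 0.46) at an adjusted p of 0.00034 in old AThi HSCs and -1.01 (SE 0.37, adjusted p = 0.066) in old ATlo HSCs, with derived levels of 8.20 normalised counts in old AThi, 16.6 in old ATlo and 33.5 in young HSCs. Clec4a3 (chr6:122929195-122929773), a C-type lectin receptor of myeloid cells, had -1.67 (SE 0.45, adjusted p = 0.0038) in old AThi and -1.86 (SE 0.44, adjusted p = 0.000781) in old ATlo HSCs, with 9.35 in old AThi, 8.24 in old ATlo and 29.9 in young HSCs. Lilra6, a leukocyte immunoglobulin-like receptor, had -2.29 (SE 0.59, adjusted p = 0.00238) in old AThi and -1.19 (SE 0.45, adjusted p = 0.0759) in old ATlo HSCs. Clec4a3 was called in both fractions, and Xdh and Lilra6 in old AThi HSCs. Clec4a and Lilr genes stand in clusters of near-identical copies, between which short reads may be misplaced. Tlr9, a sensor of unmethylated CG in foreign DNA, had -1.23 in old AThi and -1.29 in old ATlo HSCs, both called, with 14.6 in old AThi, 14.0 in old ATlo and 34.3 in young HSCs. Cd52, a lymphocyte and monocyte surface peptide, had -1.64 in old AThi and -2.12 in old ATlo HSCs, both called.

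Other lower peaks had mixed functions. Among AThi calls, Creg1 had a log2 change of -2.15, Ldlrad4, an inhibitor of TGF-β signalling, -1.61, Pram1, an adaptor of neutrophils, -1.49, Cmklr1, the chemerin receptor, -1.44, Bin3 -1.28, C1qtnf3 -1.16 and Vps4a, an ATPase of membrane scission, -1.10, all called against young HSCs. In old ATlo HSCs Mir6931 had -2.40, Plac8 -2.06, Gbp10, an interferon-induced GTPase, -1.77, Zfp652 -1.74, Il9r, the interleukin 9 receptor, -1.14 and Adamts13, the protease of von Willebrand factor, -1.13, all called against young HSCs. Creg1, Ldlrad4, C1qtnf3 and Vps4a were called lower in old ATlo HSCs too, with -1.33, -1.08, -0.76 and -0.95, and Mir6931 and Adamts13 in old AThi HSCs too, with -2.05 and -1.05. The peaks of Creg1, Ldlrad4, Cmklr1, Bin3 and Vps4a stand beside stronger promoter peaks of the same genes. At Creg1 the weak peak has a level of 15.6, against 342 for the stronger one. Relative to the median of all promoter peaks, the ATlo calls of Creg1, Ldlrad4 and C1qtnf3 and the AThi call of Cd52 did not pass.

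Old AThi and old ATlo HSCs were not distinguished at any weak promoter peak by the authors' test. At an adjusted p under 0.05, 0 of 4648 weak promoter peaks and 0% of all 94410 peaks were called in the authors' deposited table. At an unadjusted p under 0.05, 31 weak promoter peaks were higher and 49 lower in old AThi than in old ATlo HSCs, with 0.728% higher and 1.05% lower over all peaks. The median log2 change of the weak promoter peaks was -0.02, with a median SE of 0.40. A peak over a start of Slc14a1, a urea transporter of red cells, at -1.01 (SE 0.31), and Gbp10 at 1.73 (SE 0.55) came nearest, with an adjusted p of 0.999998 each in the authors' deposited table. The other weak promoter peaks of Slc14a1 had -0.08 (SE 0.42) and -0.01 (SE 0.29). Gbp10 had derived levels of 18.8 in old AThi, 5.64 in old ATlo and 19.2 in young HSCs. The next were Slc10a7 (-1.18), Zim1 (0.82), Adgrl4 (-1.62) and Oxct2b (0.73), none of which passed. A p that misses the threshold does not show that both fractions are alike. The titles number the old libraries O1, O2 and O3, each with an AThi and an ATlo library, and whether the authors' fit used this pairing is not stated in the sources used here.

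Lists of genes by function were used to describe the members, with counts and medians in place of a test. Their shares of calls stand beside those of all weak promoter peaks, of which 5.86% were higher and 1.66% lower in old AThi HSCs and 5.79% higher and 0.962% lower in old ATlo HSCs, and of all peaks, of which 7.57% were higher and 2.74% lower in old AThi HSCs and 6.88% higher and 2.54% lower in old ATlo HSCs. Nothing particular to a list is read from these shares. Of 88 neuronal adhesion and synapse genes, 30 had a weak promoter peak, 47 peaks in all. Against young HSCs, 8 of the 47 were higher and 0 lower in old AThi HSCs, and 8 were higher and 0 lower in old ATlo HSCs, 17% higher in each, against 5.86% and 5.79% of all weak promoter peaks. The median log2 change was 0.36 in old AThi and 0.39 in old ATlo HSCs, against -0.01 in old AThi and 0.02 in old ATlo HSCs over all weak promoter peaks. Dpp6, which modifies potassium channels of neurons, had several weak peaks at different starts, of which 3 were higher in old AThi HSCs, by 1.20, 1.73 and 2.91. Lrfn5, a synaptic adhesion protein, had 1.83 in old AThi and 2.01 in old ATlo HSCs, and Cdh13, an adhesion cadherin, had 1.68 in old AThi and 1.61 in old ATlo HSCs.

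Ion channel and neurotransmitter receptor genes gave 123 weak peaks at 95 genes. Against young HSCs, 15 were higher and 1 lower in old AThi HSCs, and 19 higher and 0 lower in old ATlo HSCs, with a median of 0.17 in each. Of the 120 with an adjusted p, 12.5% were thus higher in old AThi and 15.8% in old ATlo HSCs, against 5.86% and 5.79% of all weak promoter peaks and 7.57% and 6.88% of all peaks. Grin2b, a subunit of the NMDA glutamate receptor, had a peak over its start with 1.98 (SE 0.31) in old AThi and 1.86 (SE 0.31) in old ATlo HSCs. Potassium channel genes among the higher peaks included Kcnt2 at 1.71 in old AThi and 1.75 in old ATlo HSCs and Kcna4 at 1.30 in old AThi and 1.49 in old ATlo HSCs. Grin1, the shared subunit of NMDA receptors, was the lower one, at -0.87 in old AThi HSCs, with -0.15 in old ATlo HSCs, where it was not called, and relative to the median of all promoter peaks it was not called in old AThi HSCs. Most members of the list, 107 of 123 in old AThi HSCs, were not called.

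Developmental transcription factors had 77 weak peaks at 62 of 136 listed genes. Of these peaks 10 were higher and 0 lower in old AThi HSCs, and 8 higher and 0 lower in old ATlo HSCs, against young HSCs, with medians of 0.17 in old AThi and 0.24 in old ATlo HSCs. The higher shares were 13.0% in old AThi and 10.4% in old ATlo HSCs, against 5.86% and 5.79% of all weak promoter peaks and 7.57% and 6.88% of all peaks. Neurog3, which specifies endocrine cells of the pancreas, was higher by a log2 value of 1.66 (SE 0.27) at an adjusted p of 1.21e-07 in old AThi HSCs and by 1.76 (SE 0.27, adjusted p = 8.56e-09) in old ATlo HSCs. Its derived levels were 68.8 in old AThi, 73.8 in old ATlo and 21.8 in young HSCs. Sox11 and Pou4f1, factors of developing neurons, had 1.92 each in old AThi HSCs, and 1.79 and 1.48 in old ATlo HSCs. Irx1 had 1.88 in old AThi and 1.72 in old ATlo HSCs, and Foxl2, a factor of the ovary, had 1.30 in old AThi and 1.32 in old ATlo HSCs. 

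Secreted signalling ligands and antagonists, a list drawn up after the values were seen, had 76 weak peaks at 54 genes. Of these, 8 were higher and 0 lower in old AThi HSCs, and 11 higher and 1 lower in old ATlo HSCs, against young HSCs. The medians were 0.02 in old AThi and 0.10 in old ATlo HSCs, near those of all weak promoter peaks. Of the 75 with an adjusted p, 10.7% were higher in old AThi and 14.7% in old ATlo HSCs, against 5.86% and 5.79% of all weak promoter peaks and 7.57% and 6.88% of all peaks. Sfrp1, an antagonist of Wnt proteins, had 1.64 (SE 0.25) in old AThi and 1.56 (SE 0.24) in old ATlo HSCs, at a peak upstream of the start, beside a stronger one. Bmp4, Bmp3 and the BMP antagonist Nog were called higher in both fractions, with 1.04, 1.33 and 1.28 in old AThi HSCs, and 0.96, 1.20 and 1.21 in old ATlo HSCs. Ligands and an antagonist of the same pathway were thus both among the higher peaks. Gdnf, a neurotrophic factor, had 1.44 in old AThi and 1.18 in old ATlo HSCs, and Sema3e, a guidance cue, 1.47 in old AThi and 1.90 in old ATlo HSCs. Of the 5 weak peaks at Bdnf, 1 was higher in old AThi and 2 others in old ATlo HSCs. Angpt1, a ligand of the Tie2 receptor on HSCs, had 0.55 in old AThi HSCs, where it was not called, and 0.67 (adjusted p = 0.0491) in old ATlo HSCs. Inhbe was the lower one in old ATlo HSCs, at -0.73, and was not called lower once changes were centred on the median of all peaks.

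Of 30 genes used as markers of HSC ageing, 10 had a weak promoter peak. Each old fraction had 3 higher and 0 lower than young HSCs, with medians of 0.92 in old AThi and 0.84 in old ATlo HSCs. The higher share was 30% in each, of 10 peaks only. Over all weak promoter peaks it was 5.86% in old AThi and 5.79% in old ATlo HSCs, and over all peaks 7.57% and 6.88%. The lowest change in the list was -0.87 in old AThi and -0.83 in old ATlo HSCs, not called. Cdkn2a (chr4:89200216-89200588), which encodes the cell cycle inhibitors p16 and p19, was higher by a log2 value of 1.81 (SE 0.28) at an adjusted p of 1.49e-08 in old AThi HSCs and by 1.49 (SE 0.28, adjusted p = 1.12e-05) in old ATlo HSCs. Its derived levels were 80.6 in old AThi, 64.2 in old ATlo and 22.9 in young HSCs, a 3.52-fold (95% interval 2.40 to 5.16) and a 2.80-fold (1.91 to 4.11) difference. Cdkn2a also had a stronger promoter peak at a level of 75.5, so these values describe the weak peak alone. Which of the gene's starts the weak peak covers was not determined. Selp, P-selectin, whose RNA is known to rise in old HSCs, had 0.96 (SE 0.27, adjusted p = 0.0067) in old AThi HSCs and 0.70 (SE 0.27, adjusted p = 0.0791) in old ATlo HSCs. Neo1 was called in old AThi HSCs at 1.40 with 0.97 in old ATlo HSCs, and Plscr2 and Fhl1 in old ATlo HSCs at 1.21 and 1.24, with 0.87 and 1.14 in old AThi HSCs. Slamf1, at 0.01 in old AThi and 0.29 in old ATlo HSCs, was not called.

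Innate immune receptor and effector genes, a list also drawn up after the values were seen, had 92 weak peaks at 70 genes. Against young HSCs, 18 were lower and 2 higher in old AThi HSCs, and 11 were lower and 1 higher in old ATlo HSCs, with medians of -0.31 in old AThi and -0.19 in old ATlo HSCs. Of the 91 with an adjusted p, 19.8% were lower in old AThi and 12.1% in old ATlo HSCs, against 1.66% and 0.962% of all weak promoter peaks and 2.74% and 2.54% of all peaks. Relative to the median of all promoter peaks, 13 were lower and 4 higher in old AThi HSCs, and 7 lower and 1 higher in old ATlo HSCs. Both weak peaks called at Nlrp3, the inflammasome sensor, were lower in old AThi HSCs, at -2.32 and -1.79, with -2.10, not called, and -2.08 in old ATlo HSCs. Card9, an adaptor of fungal sensing, had -3.0 (SE 0.94, adjusted p = 0.0196) in old AThi HSCs and -1.30, not called, in old ATlo HSCs. Tyrobp, the signalling adaptor DAP12, had -0.94 in old AThi and -1.06 in old ATlo HSCs, both called. Clec4a2 had -0.92 in old AThi and -0.85 in old ATlo HSCs, and Ncf4, of the phagocyte oxidase, had -1.78 in old AThi HSCs and -1.38 (adjusted p = 0.0596) in old ATlo HSCs. The higher ones were Fgr, a myeloid kinase, and the pseudogene Nlrp5-ps, at 0.99 and 2.40 in old AThi HSCs. Because the list was chosen for this pattern, its counts are a description.

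Markers of mature blood and niche cells were read beside these genes. Of 24 granulocyte and monocyte markers, 6 had a weak promoter peak, of which 1, Fcgr3, was lower in old AThi HSCs (-1.66) and 0 were called in old ATlo HSCs. Their derived levels summed to 103.9 normalised counts in old AThi, 134.2 in old ATlo and 162.2 in young HSCs. Over all promoter peaks of that list, 11 genes with 13 others at no promoter peak, the sums were 514 in old AThi, 536 in old ATlo and 603 in young HSCs. In bulk libraries, fewer cells of a type and lower accessibility per cell cannot be told apart, and the part of such cells in the lower immune peaks was not tested. T and NK cell markers had 8 weak peaks, with Thy1 higher (1.74) and Cd5 lower (-1.38) in old AThi HSCs, and Gzmb and Thy1 higher (1.25 and 1.49) in old ATlo HSCs. Their sums were 185.6 in old AThi, 180.3 in old ATlo and 150.2 in young HSCs. Of these sums the called Thy1 peak held 78.4 in old AThi, 65.7 in old ATlo and 23.5 in young HSCs. The median log2 change of the 8 peaks was -0.20 in old AThi and -0.16 in old ATlo HSCs, so the larger sums do not describe the list as a whole. No weak peak of the B cell (4 peaks), erythroid (2), megakaryocyte (3) or stromal and endothelial (8) lists was called in either comparison. Over all weak promoter peaks 5.86% were higher and 1.66% lower in old AThi HSCs, so lists this small leave little room for a call. Uncalled granulocyte and monocyte peaks included Cx3cr1, at -0.57 in old AThi and 0.17 in old ATlo HSCs, and Itgam, at -0.65 in old AThi and -0.64 in old ATlo HSCs. Ebf1 of B cells had -0.53 in old AThi and -0.66 in old ATlo HSCs, and Cd22 had -0.15 in old AThi and -0.28 in old ATlo HSCs. Lepr, Sp7 and Plvap of stroma and endothelium had 0.55, -0.43 and -0.41 in old AThi HSCs and 0.82, -0.68 and -0.46 in old ATlo HSCs. Gp1bb, Treml1 and Tubb1 of megakaryocytes had 0.10, 0.03 and -0.04 in old AThi HSCs and 0.29, 0.06 and 0.02 in old ATlo HSCs.

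**Figure D5:**
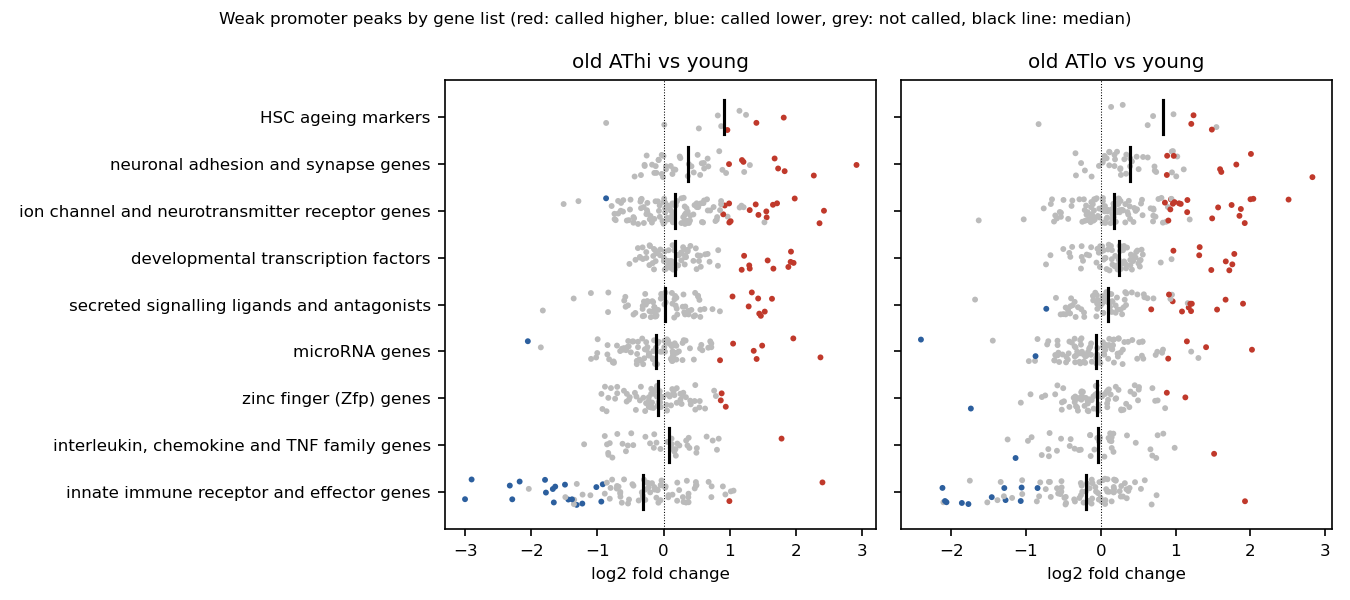
Log2 fold change against young HSCs (horizontal axis) of each weak promoter peak by gene list, old AThi HSCs at left and old ATlo HSCs at right. Red points were called higher, blue points lower, grey points were not called, and the black line is the median. The HSC ageing list has medians of 0.92 and 0.84, and the innate immune list, chosen after the values were seen, -0.31 and -0.19.

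MicroRNA genes, taken by symbol, had 97 weak peaks at 90 genes, with 7 higher and 1 lower in old AThi HSCs and 4 higher and 2 lower in old ATlo HSCs, against young HSCs. The 99 peaks that the RefSeq biotype gives to microRNAs hold these and a peak each at Gm51272, higher in both fractions, and at Gm24195, lower in old AThi HSCs. Of the 94 taken by symbol with an adjusted p, 7.45% were higher in old AThi and 4.26% in old ATlo HSCs, against 5.86% and 5.79% of all weak promoter peaks and 7.57% and 6.88% of all peaks, so these shares are near the background. The median log2 change was -0.12 in old AThi and -0.06 in old ATlo HSCs, and relative to the median of all promoter peaks it was -0.01 in old AThi and 0.09 in old ATlo HSCs. The mature products of 4 genes among the higher AThi peaks are shown with their seeds, bases 2 to 8 that pair with target RNAs, in capitals, as RefSeq gives them for GRCm38.p6. They come from Mir199a-2 and Mir10b, and from Mir30a and Mir9-3, which were picked after their values were seen.
mmu-miR-199a-5p: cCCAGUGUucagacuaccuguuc
mmu-miR-199a-3p: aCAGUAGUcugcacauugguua
mmu-miR-10b-5p: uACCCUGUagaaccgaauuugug
mmu-miR-10b-3p: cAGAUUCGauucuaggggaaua
mmu-miR-30a-5p: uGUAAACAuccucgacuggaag
mmu-miR-30a-3p: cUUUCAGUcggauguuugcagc
mmu-miR-9-5p: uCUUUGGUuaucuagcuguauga
mmu-miR-9-3p: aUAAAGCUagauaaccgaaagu
No seed is shared among the 8. Mir199a-2 had a log2 change of 2.37 (SE 0.34) in old AThi and 2.02 (SE 0.35) in old ATlo HSCs, with derived levels of 48.2 in old AThi, 37.9 in old ATlo and 9.33 in young HSCs. Mir10b, which lies in the HoxD cluster, had 1.40 in old AThi and 1.15 in old ATlo HSCs, at a peak 1000 bases after its annotated start. The Mir5617 peak was 3.89-fold (95% interval 2.63 to 5.74, adjusted p = 1.36e-09) the young level in old AThi HSCs and 2.65-fold (1.79 to 3.95, adjusted p = 7.74e-05) in old ATlo HSCs. These 3 microRNA genes were called in both old fractions. Mir30a had 1.49 in old AThi and 1.31 (adjusted p = 0.0583) in old ATlo HSCs, and Mir9-3, of a neural microRNA family, 1.36 in old AThi and 0.76 (adjusted p = 0.135) in old ATlo HSCs. A peak near a microRNA can belong to the promoter of another transcript, and strand is not measured by ATAC-seq.

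Zinc finger genes of the Zfp, Zscan and Zkscan families had 77 weak peaks, 3 of them higher and 0 lower in old AThi HSCs, and 2 higher and 1 lower in old ATlo HSCs. Of the 74 with an adjusted p, 4.05% were higher in old AThi and 2.70% in old ATlo HSCs. The shares were 5.86% and 5.79% over all weak promoter peaks, and 7.57% and 6.88% over all peaks. Zfp804a had log2 changes of 0.94 in old AThi and 1.13 in old ATlo HSCs. Zkscan2 had 0.88, called, in old AThi HSCs and 0.50, not called, in old ATlo HSCs, and Zfp652 was the lower one. Interleukin, chemokine and TNF family genes had 40 weak peaks, with Il31, a cytokine of itch, higher in both fractions at 1.78 in old AThi and 1.52 in old ATlo HSCs, and Il9r lower in old ATlo HSCs. The higher share of that list was 2.5% in each fraction, below that of all weak promoter peaks. Il33, an alarmin cytokine, had 0.83 in old AThi and 0.99 (adjusted p = 0.052) in old ATlo HSCs, neither called. None of the 14 weak peaks of chemosensory receptor genes, the 3 of germline genes or the 3 of autophagy genes was called in either comparison. With 5.86% higher and 1.66% lower calls over all weak promoter peaks in old AThi HSCs, so few peaks leave little room for a call. Nothing about these genes is read from the absence of calls. The autophagy peaks, at Tfe3, Calcoco1 and Gabarapl1, had -0.94, -0.70 and -0.42 in old AThi HSCs and -0.57, -0.27 and -0.24 in old ATlo HSCs. Of the germline peaks, Stra8 had -0.86 in old AThi and -0.46 in old ATlo HSCs, and Nanos3 and Dmc1 had 0.04 and 0.13 in old AThi HSCs and -0.30 and -0.02 in old ATlo HSCs. Of the chemosensory peaks, Olfr530 had 1.73 in old AThi and 1.65 in old ATlo HSCs, Taar4 -0.64 in old AThi and -1.23 in old ATlo HSCs, and Olfr420 -0.61 in old AThi and -0.58 in old ATlo HSCs.

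The sex chromosomes held weak promoter peaks on X (208) and Y (1). The peak at Xist, the RNA that silences an X chromosome in females, had a mean level of 13.5 and log2 changes of -6.79 (SE 2.32, adjusted p = 0.0376) in old AThi and -3.41 (SE 2.08, adjusted p = 0.34) in old ATlo HSCs. Eif2s3y on Y had 0.52 (SE 1.75) in old AThi and 0.19 (SE 1.75) in old ATlo HSCs. These are the largest SEs of all weak promoter peaks in both comparisons, against medians of 0.44 in old AThi and 0.42 in old ATlo HSCs at levels of 10 to 20 and 0.27 in old AThi and 0.26 in old ATlo HSCs at 40 to 50. The Xist change is fitted against a derived level of 0.251 in old AThi HSCs, so its size depends on the fit. Values per library were not in the tables, and the source of these SEs was not tested. The sources used here give no sex, and its part in the comparisons with young HSCs was not tested. Without both chromosomes 263 weak promoter peaks were higher and 73 lower in old AThi HSCs, and 258 higher and 42 lower in old ATlo HSCs.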

How the data were processed

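The libraries were ATAC-seq of purified mouse HSCs, grouped by their titles as 3 old AThi, 3 old ATlo and 5 young. The submitters' processing notes name BWA, MACS2, ChIPseeker, Trim Galore, cutadapt, DESeq2 and featureCounts with no versions, and the builds GRCm38 and mm39. Shifting of reads for the transposase, handling of duplicates and merging of peaks are not given in the sources used here, and these steps can change peak borders and low counts. The files are 3 deposited comparison tables, each with the same 94410 peaks. The mean normalised count per peak is the authors' signal value over all libraries, the log2 fold changes and their SEs are the authors' deposited values, the Wald statistic per peak is the authors' score, and the p-values and adjusted p-values were used as deposited. The difference of both changes against young HSCs matched the third table within 1.02e-14, so the tables come from 1 fit.

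The planned count test needed counts per library. The tables held 0 columns of values per library, so no model was refitted, depth could not be checked, and a peak was called where the authors' adjusted p was under 0.05. Peaks without an adjusted p (75 weak promoter peaks, mean count at most 5.96) were not called. Intervals are 1.96 SE to each side. Per the labels the old pairs are biological replicates, and nothing is said of animals for the young, so the p-values reflect spread between libraries, part of which may be technical. Alternatives changed the adjusted p (0.01, 0.1), the level (25, 100), the position and the centring. The code for recomputed calls was checked on simulated data with few changed peaks, even odds of either direction and a shift common to all peaks. The real calls were mostly higher, so that check does not cover how centring acts on them. RefSeq tables (GRCm38.p6) gave gene names, promoter windows and microRNAs, matched by gene. 5 members had no symbol. Peaks were not matched to them by coordinates, as the peak coordinates were taken as mm39. Python 3.11.15, pandas 2.3.3, numpy 2.4.6, scipy 1.17.1 and matplotlib 3.10.9 were used.

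Members and lists were chosen with earlier results of these data known. The text names, per old against young comparison and direction, the 10 called peaks with the smallest p, the 3 smallest p in each direction between old fractions, the 3 peaks on each side of the threshold and the 3 of each list with the smallest p, passing over predicted genes. Further named peaks were chosen after their values were seen. Some items are not reported here.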

Additional observations from a re-analysis of the deposited data

How the results depend on the processing

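Of the comparison results, 17 counts moved by more than 1.5 times under an alternative, and 70 other values were labelled as the same. These 70 include the counts between both old fractions, which were 0 throughout and carry no information on stability. They also include the medians, which were labelled the same when they moved by less than the median SE of a peak. Direction was checked only under centring, for the old against young peaks of the naming rule and of the lists, and no call was reversed. Centring shifts every change of a comparison by the same small amount, so it could hardly turn a call. The median log2 change of all weak promoter peaks changed sign in each comparison: in old AThi against young HSCs it was -0.01, but 0.0018 with the level at 100, 0.02 over the start site, 0.03 centred on all peaks and 0.10 centred on promoter peaks, in old ATlo against young HSCs 0.02, but -0.0018 with the level at 25, and in old AThi against old ATlo HSCs -0.02, but 0.01 with the level at 100. At an adjusted p under 0.01, 19 weak promoter peaks were lower in old AThi and 7 in old ATlo HSCs than in young HSCs, and under 0.1, 138 in old AThi and 81 in old ATlo HSCs. With the level threshold at 25, old AThi HSCs had 66 higher and 42 lower and old ATlo HSCs 63 higher and 24 lower peaks. With it at 100, old AThi HSCs had 745 higher and 166 lower and old ATlo HSCs 661 higher and 113 lower peaks. Over the start site alone, old AThi HSCs had 138 higher and 46 lower and old ATlo HSCs 142 higher and 21 lower peaks. These 3 settings change how many peaks are counted. Centred on the median of all promoter peaks, 22 peaks were lower in old ATlo HSCs, against 44 as deposited. Old AThi against old ATlo HSCs had 0 calls in each alternative run. The nearest named peaks had an adjusted p of 0.999998, so these settings had little room to change that. At an unadjusted p under 0.05 there were 80 of 4648 peaks, a smaller share than the 0.05 that evenly spread p-values would give. Centring on promoter peaks, extended after seeing the data to the peaks taken by the naming rule, left 149 of their changes on their side of the threshold, with 3 newly called and 4 lost, all in the same direction. Grin1, named outside that rule, also lost its AThi call. No paired analysis was possible because the tables hold no values per library. For the same reason leaving out each library, a fit with the pair as a block, other size factors, count filters and edgeR were not run. Low levels limit precision: the median SE was 0.61 at levels under 10.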

Other observations

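Several imprinted or developmentally silenced genes outside the lists had called weak promoter peaks, and were picked after their values were seen. Nap1l5, an imprinted gene, was higher by a log2 value of 1.70 (SE 0.33) at an adjusted p of 1.22e-05 in old AThi HSCs and by 1.61 (SE 0.32, adjusted p = 4.02e-05) in old ATlo HSCs against young HSCs in the authors' deposited tables. Zim1, also imprinted, had 1.18 (SE 0.27) in old AThi HSCs, where it was called, and 0.36 (SE 0.29) in old ATlo HSCs, where it was not, and the difference between both fractions was 0.82 (SE 0.31), which did not pass adjustment. Klf14 had 1.10 in old AThi and 0.72 in old ATlo HSCs, both called. Mkrn3 was lower in old AThi HSCs at -1.45, with -0.70, not called, in old ATlo HSCs. Imprinted genes were thus found in both directions. Myod1, the master factor of muscle, had 1.85 in old AThi and 1.60 in old ATlo HSCs, and Msi1, an RNA-binding protein of neural stem cells, had 2.32 in old AThi and 1.79 in old ATlo HSCs. Hoxd13 had 1.33 in old AThi and 0.94 in old ATlo HSCs, and Hoxa2 had 1.01 in old AThi HSCs and 0.61, not called, in old ATlo HSCs.

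Lower peaks at genes of proliferating cells were also picked after their values were seen. Pclaf, a clamp-associated factor of DNA replication, had a peak over its start at -0.91 (SE 0.28, adjusted p = 0.0144) in old AThi HSCs and -0.54, not called, in old ATlo HSCs. Iqgap3, a scaffold of proliferating cells, had -2.16 (SE 0.67, adjusted p = 0.0172) in old AThi HSCs and -0.90, not called, in old ATlo HSCs. Notch4, a receptor of endothelium, was higher in both, at 1.29 in old AThi and 1.20 in old ATlo HSCs. The Hmga2 peak, 234 bases upstream of its start, was higher in old AThi HSCs at 1.14 (adjusted p = 0.00189), with 0.75 (adjusted p = 0.0821) in old ATlo HSCs.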
